A study of Mus musculus with 14 samples.

Results

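The data describe 1 comparison: B lineage cells that grew from wild type fetal liver after transplantation against pre-B cells of normal marrow. The comparison and the gene lists were chosen with earlier results of these data known. The members of the comparison were set by the sample titles. They were the 3 arrays titled as engrafted wild type fetal liver (WT engrafted) and the 2 arrays titled PreB, 5 of the 14 Affymetrix arrays in the series. WT engrafted cells descended from fetal liver of day 15 embryos whose cells carried a reporter for λ5, the surrogate light chain gene Igll1. The donor cells were put into sublethally irradiated mice, and marrow cells that carried B220 and showed the reporter were sorted 4 weeks later. PreB cells were sorted from the marrow of mice that received no transplant, with gates that the labels do not state. All mice were C57Bl6, with adult animals of 8 to 12 weeks, and neither group carried a knockout. The labels call the arrays biological replicates, numbered 1, 2 and 3 for WT engrafted and 2 and 3 for PreB in their titles. They do not say whether animals were pooled, so the p-values measure a spread between arrays and not between animals. That spread was pooled over the groups of all 14 arrays and is not that of the 5 compared arrays alone. The 2 ProB arrays (pro-B cells of untransplanted marrow) are set beside the comparison as the stage before.

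Pro-B cells rearrange the antibody heavy chain gene. A cell that succeeds pairs the new μ heavy chain with the surrogate light chain, made of λ5 and VpreB, to form the pre-B receptor, and then divides as a large pre-B cell. It later stops dividing, silences the surrogate light chain genes, rearranges a light chain gene as a small pre-B cell and takes up genes of the mature B cell surface. The design allows the question of which of these features reporter-positive engrafted cells shared with normal pre-B cells and which they lacked. Donor age, transplantation and the reporter gate coincide with the groups and cannot be told apart.

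The series gives 1 log2 signal per probe set, from 2.32 to 16.1, and 18193 genes with a single symbol were tested. Many probe sets sat at the bottom of this scale. A group is called at the floor for a gene when each of its arrays read no more than 0.5 above the minimum, and a difference from such a group is a lower bound. The B lineage was plain in both groups, and the marker lists of other cells were not alike. The summed signal of 14 pre-B markers was 15.93 to 16.13 on the WT engrafted arrays and 15.878 to 15.997 on the PreB arrays, on a log2 scale. The 14 T cell markers summed to 6.66 to 7.01 and 6.97 to 7.33, with Cd3d, Cd3e and Cd3g at the floor in both groups. The 21 granulocyte and monocyte markers summed to 8.54 to 10.62 in WT engrafted cells, 13.68 to 14.35 in PreB cells and 7.55 to 7.63 in ProB cells. The 14 NK and innate lymphoid markers summed to 6.93 to 7.77, 12.87 to 13.24 and 6.56 to 6.76 in the same order. Of these NK markers 11 lay at the floor in WT engrafted cells and 3 in PreB cells. In bulk samples, fewer cells of a type and less RNA per cell cannot be told apart. The actin control probes differed between their 3' and 5' ends by 7.27 and 6.71 on the PreB arrays, and by 2.51, 2.56 and 3.47 on the WT engrafted arrays. This gap grows as labelled transcripts become shorter, and it did not overlap between the groups. The same gap of Gapdh did overlap, at 4.88 and 4.35 on the PreB arrays and 2.61, 3.02 and 5.44 on the WT engrafted arrays. The actin gap and the group cannot be told apart. Xist, which is expressed in females, read 12.68 on WT engrafted array 3, 2.33 and 2.58 on the other WT engrafted arrays and 2.33 on both PreB arrays. It read 10.71 and 11.49 on the ProB arrays. The Y-linked gene Eif2s3y read 2.32 on both ProB arrays and 11.04 and 11.01 on the PreB arrays. Between PreB and ProB cells, stage and sex therefore cannot be told apart. Without WT engrafted array 3, 973 genes were called, against 1342 with it.

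**Figure D1:**
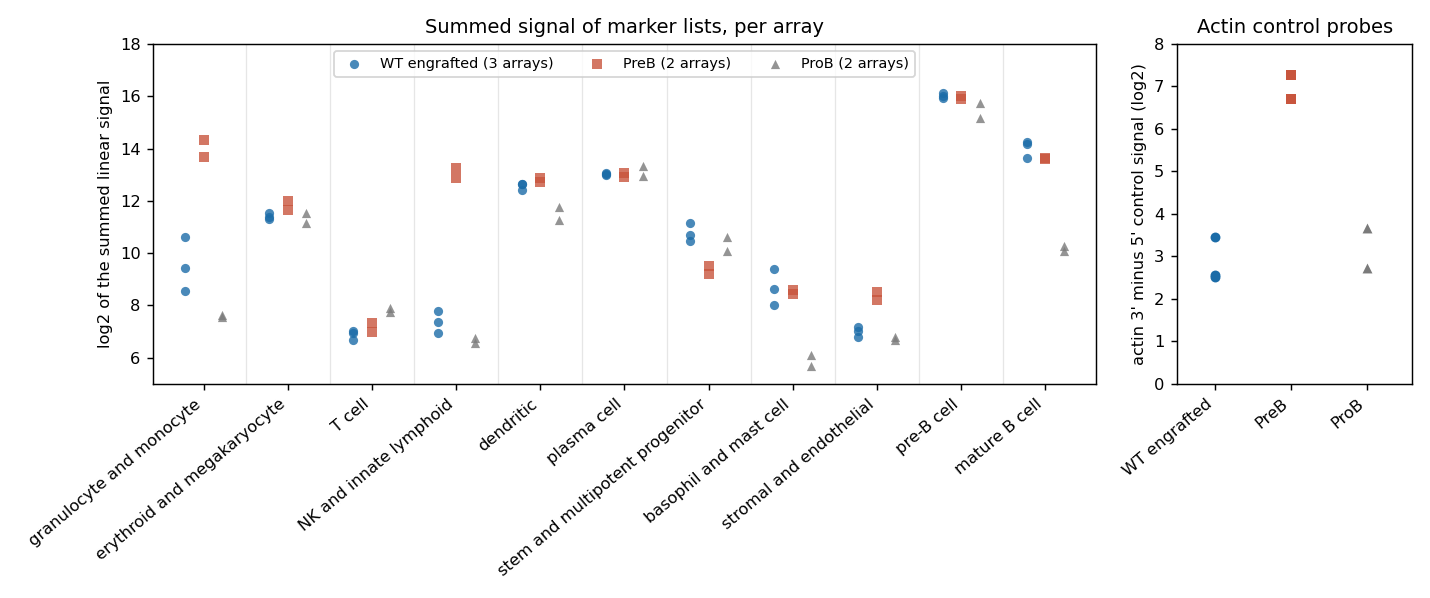
Left, log2 of the summed linear signal of each marker list on the WT engrafted (3), PreB (2) and ProB (2) arrays; right, the 3' minus 5' log2 difference of the actin control probes on the same arrays, with each point 1 array. Granulocyte and NK markers and the actin difference were highest on both PreB arrays, while pre-B markers lay between 15.88 and 16.13 in both groups compared.

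Across all genes, 1342 were called at an adjusted p under 0.05 (limma, Benjamini-Hochberg), which is 7.38% of those tested. They were 821 higher in WT engrafted cells (4.51%) and 521 lower (2.86%). Differences of at least 4-fold were seen for 317 of the higher and 233 of the lower genes. The arrays of the groups did not overlap for any called gene, but they also did not overlap for 31.3% of all genes. To describe what the groups shared, genes were counted whose 95% interval of the difference lay within 2-fold in either direction. This held for 1793 of the 10593 genes above the floor in a group (16.9%), and 7540 genes were neither called nor held in that range. The share of called genes that were higher in WT engrafted cells was 61.2%, and 50.3% after equalising the arrays' upper quartiles, which shifted the median difference of all genes by -0.16. It was 33.8% without PreB array 2 and 37.1% without PreB array 3. A fit with the actin difference as a term, chosen after seeing the data, called 97 genes, 35 higher and 62 lower.

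The 20 lists of pathway genes separated in the directions of their called members. Mitosis and spindle genes had the highest median difference, 1.78 on the log2 scale, and immediate early and stress genes the lowest, -2.11, where the median of all genes was 0.00. Members were called in a single direction, higher in WT engrafted cells, in the lists of mitosis, DNA replication, surrogate light chain and pre-B receptor, interferon response, ribosomal protein and MHC class II genes. Both directions were called among maturation, IL-7 receptor and cell cycle inhibitor genes. List counts below stand beside 4.51% higher and 2.86% lower of all genes.

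**Figure D2:**
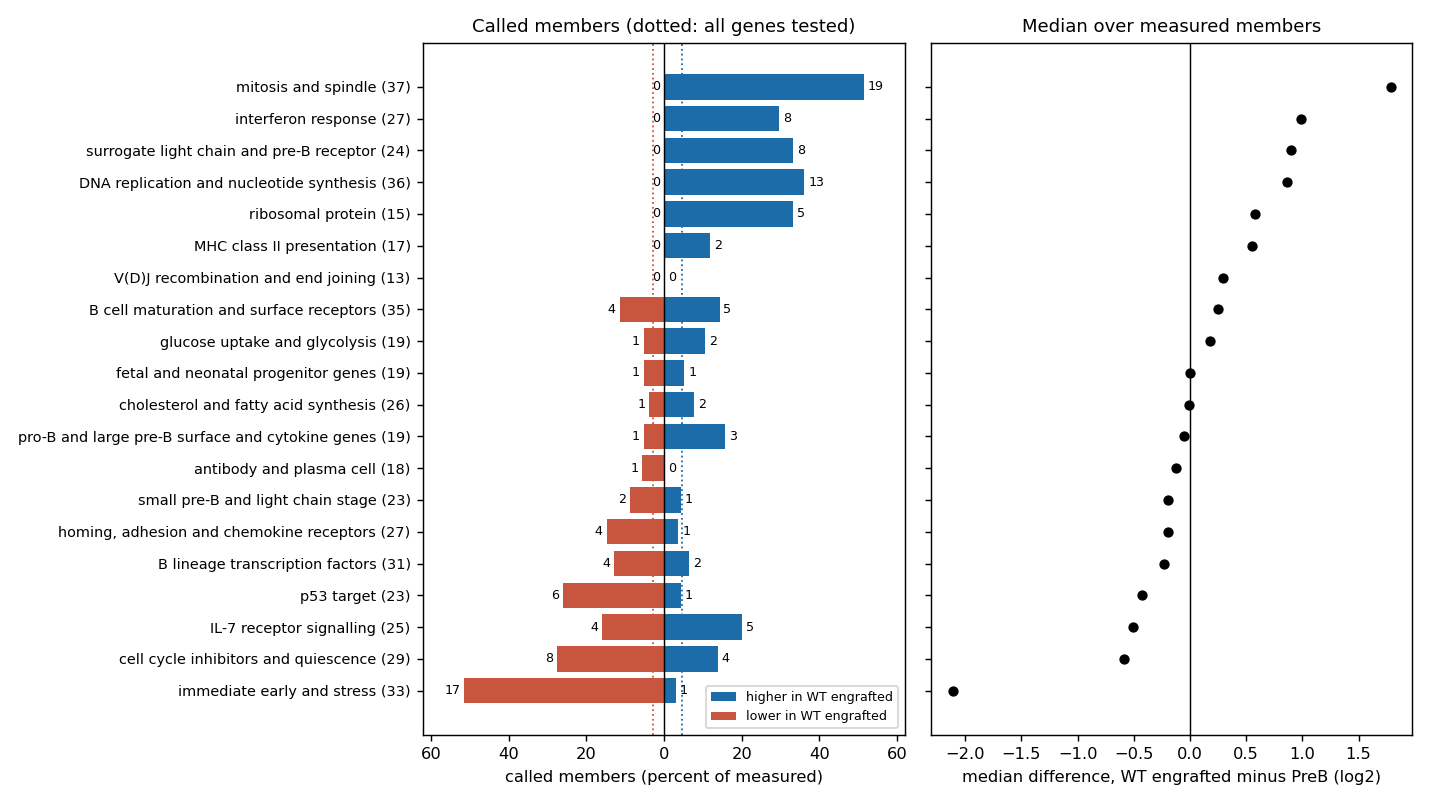
Left, percent of the measured members of each pathway list that were called higher (right of 0) or lower (left of 0) in WT engrafted than in PreB cells, with counts at the bars, the number measured in brackets and dotted lines at 4.51% and 2.86% for all genes; right, the list's median log2 difference. Mitosis and spindle genes stood at the top with 19 of 37 called higher, and immediate early and stress genes at the bottom with 17 of 33 called lower.

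Some genes of the surrogate light chain and of pre-B receptor signalling were higher in WT engrafted cells. Of 24 measured genes, 8 were called higher (33.3%, beside 4.51% of all genes) and 0 lower by limma. At an unadjusted p under 0.05, 11 were higher and 0 lower, and the median difference was 0.90. Igll1 encodes λ5, whose reporter was used to sort the engrafted cells, so its direction was fixed in part by the gate. It read 11.77, 11.41 and 12.75 on the WT engrafted arrays and 8.40 and 9.02 on the PreB arrays, against 12.93 and 13.47 in ProB cells. The WT engrafted arrays lay above both PreB arrays and below both ProB arrays, and the difference from PreB was 3.27 (SE 0.40, limma adjusted p = 0.00199). Igll1 was called by 1 of its 2 probe sets.

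Vpreb1, the partner of λ5, was not the reporter gene of the sort. The gate on λ5 may still have fixed part of its direction, which was not tested. It read 12.13, 11.90 and 12.06 in WT engrafted cells and 10.14 and 10.26 in PreB cells, with no overlap, and 12.80 and 13.77 in ProB cells. The difference was 1.83 (SE 0.44, limma adjusted p = 0.0417), and its call was lost with each of the 5 arrays left out in turn, at adjusted p from 0.0869 to 0.166. Vpreb3, a VpreB homologue that binds μ chains, had a different order. It read 10.91, 10.95 and 10.62 in WT engrafted cells, 8.41 and 8.77 in PreB cells and 8.61 and 8.90 in ProB cells. WT engrafted cells therefore stood above both normal stages, by 2.24 over PreB (SE 0.27, limma adjusted p = 0.00198). Vpreb2 was not analysed here.

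The receptor's other chains were not called. Ighm, the μ heavy chain that the surrogate light chain binds, read 13.999, 14.119 and 14.130 in WT engrafted cells and 14.65 and 14.72 in PreB cells, a difference of -0.60 with a 95% interval of -1.24 to 0.03. Cd79a and Cd79b carry the signal of μ into the cell. Their differences were 0.96 (interval -0.05 to 1.98) and 1.27 (interval 0.50 to 2.05, limma adjusted p = 0.0628).

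Among the signalling proteins, Ptpn6 (the SHP-1 phosphatase, which dampens receptor signals) had the largest difference. It read 11.82, 12.06 and 11.80 in WT engrafted cells against 9.43 and 9.27 in PreB cells, a difference of 2.54 (SE 0.31, limma adjusted p = 0.00198) that both of its probe sets called. Plcg2, the phospholipase of the pathway, was 1.34 higher (SE 0.18, limma adjusted p = 0.00336) and kept its call with each array left out. Pik3cd, the lymphoid PI3 kinase subunit, was 1.60 higher (limma adjusted p = 0.0166), and 0.0745 and 0.0708 without PreB array 2 or 3. Vav1, an exchange factor, was 1.48 higher (0.0116, and 0.0622 without PreB array 3). Syk, the kinase that starts the cascade, was 1.06 higher (0.0348), and its call was lost in 4 of the 5 fits that left out an array, at 0.0831 to 0.18. With the actin term its difference was -0.06 (limma adjusted p = 1.0), so its direction turned. The adaptor Grb2 (difference 0.03) and Zap70 (-0.05) were held within 2-fold. Blnk, the adaptor downstream of Syk, differed by 0.23 with an interval of -0.72 to 1.19.

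Of the 8 called genes, Igll1, Vpreb3, Plcg2 and Ptpn6 were the 4 that kept their calls with each array left out. With the actin term 0 of 24 were called, and the median difference was 0.54. The differences of Igll1 (3.99) and Vpreb1 (2.62) were larger in that fit, that of Plcg2 was 1.32, and those of Vpreb3 (1.46), Ptpn6 (1.44), Pik3cd (0.64) and Vav1 (0.43) were smaller.

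**Figure D3:**
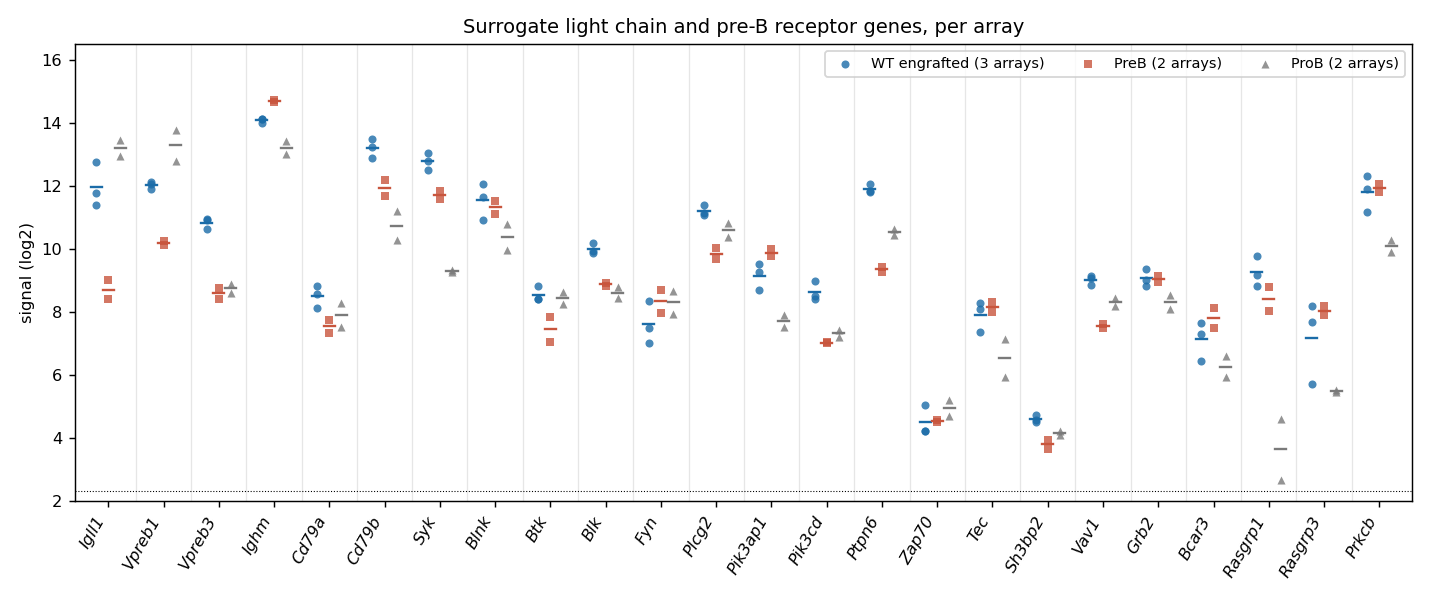
Log2 signal of the 24 measured surrogate light chain and pre-B receptor genes on the WT engrafted (3), PreB (2) and ProB (2) arrays; each point is 1 array, the bar is the group mean and the dotted line the floor. Igll1 and Vpreb1 were lowest on the PreB arrays, while Vpreb3 was highest in WT engrafted cells (10.62 to 10.95).

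Many genes of mitosis were higher in WT engrafted cells. Of 37 measured, 19 were called higher in WT engrafted cells and 0 lower (background 4.51% and 2.86%), and all 37 differences were above 0. At an unadjusted p under 0.05, 28 were higher and 0 lower. The median member read 10.05 in WT engrafted cells, 8.20 in PreB cells and 9.996 in ProB cells. PreB cells thus had the lowest median level, and that of WT engrafted cells was within 0.1 of ProB. From ProB to PreB, 15 members were called lower and 0 higher (background 5.18% and 6.34%), and between WT engrafted and ProB cells 1 was called higher and 0 lower (3.63% and 1.3%). These comparisons share arrays.

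The promoters of 4 of these genes are shown because most promoters of the list hold the CCAAT box, bound by the factor NF-Y. The cell cycle homology element TTTGAA, found in 29.0% of them, is marked too, and the Plk1 stretch has no match to it. Each line gives the last 200 bases before the RefSeq start on GRCm38.p6, 5′ to 3′ on the gene's strand. Capitals mark CCAAT and TTTGAA, on either strand (ATTGG and TTCAAA on the other). Cdk1 is at chr10:69352913-69353112 (minus strand), Cdc20 at chr4:118437344-118437543 (minus), Ube2c at chr2:164769729-164769928 (plus) and Plk1 at chr7:122159235-122159434 (plus). In Ube2c, 2 CCAAT boxes on opposite strands overlap.
Cdk1: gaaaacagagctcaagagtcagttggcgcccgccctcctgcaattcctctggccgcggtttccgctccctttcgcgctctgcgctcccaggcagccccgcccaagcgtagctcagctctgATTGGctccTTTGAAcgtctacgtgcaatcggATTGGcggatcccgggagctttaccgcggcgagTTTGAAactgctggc
Cdc20: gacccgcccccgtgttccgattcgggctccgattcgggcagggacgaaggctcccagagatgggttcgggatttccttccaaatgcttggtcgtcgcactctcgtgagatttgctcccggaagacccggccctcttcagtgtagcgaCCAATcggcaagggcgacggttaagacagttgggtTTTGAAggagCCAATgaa
Ube2c: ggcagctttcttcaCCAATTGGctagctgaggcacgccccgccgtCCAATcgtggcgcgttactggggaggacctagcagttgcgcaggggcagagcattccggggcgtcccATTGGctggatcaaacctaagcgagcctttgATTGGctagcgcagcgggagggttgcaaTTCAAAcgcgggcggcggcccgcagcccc
Plk1: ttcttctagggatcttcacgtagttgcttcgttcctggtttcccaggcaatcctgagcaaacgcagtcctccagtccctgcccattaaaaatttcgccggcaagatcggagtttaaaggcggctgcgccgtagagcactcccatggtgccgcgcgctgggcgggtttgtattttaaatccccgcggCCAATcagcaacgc
In the 250 bases before the start, CCAAT was found in 22 of 31 promoters of the mitosis list (71.0%) and in 34.5% of all 27025 promoters. Among the 15 promoters available for its called genes it was found in 13 (86.7%). TTTGAA was found in 9 of 31 (29.0%), in 7 of the 15 called (46.7%) and in 16.3% of all. A match describes letters in the window and was not tested as a binding site.

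Plk1, the polo-like kinase that drives mitotic entry, had the largest difference of the list. It read 9.04, 9.03 and 9.10 on the WT engrafted arrays, 4.43 and 4.63 on the PreB arrays and 9.73 and 9.83 on the ProB arrays. PreB cells stood far below both other groups, and WT engrafted cells were 4.53 above them (SE 0.29, limma adjusted p = 5.54e-05). Cdk1, the mitotic kinase, read 10.67, 10.84 and 11.50 against 8.56 and 7.84, a difference of 2.80 (SE 0.28, limma adjusted p = 0.00081). Its activators were higher too: the cyclin Ccnb2 was 2.26 higher and the phosphatase Cdc25b 2.19 higher.

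The kinases and motors of the spindle followed. Aurka, the spindle pole kinase, read 9.03, 9.17 and 8.88 in WT engrafted cells and 5.9996 and 5.98 in PreB cells, and was 3.04 higher (SE 0.40, limma adjusted p = 0.003, by 1 of 2 probe sets). Kif20a, a motor of cytokinesis, was 2.97 higher, Birc5 (survivin) 2.91 higher and Espl1, the separase that cuts cohesin, 2.69 higher. Tpx2 (2.47), the checkpoint kinase Bub1b (2.17), the transcription factor Foxm1 (2.16) and Cdc20 (1.81), the activator of anaphase, were called too. Ube2c, the ubiquitin carrier of anaphase, read 10.64 to 11.15 against 7.70 and 7.77 (difference 3.10, limma adjusted p = 0.0291). Its call was lost without any 1 of the 5 arrays, at adjusted p from 0.0683 to 0.121.

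Widely used proliferation markers were not uniform. Top2a was called higher, with differences of 0.73 to 1.03 when an array was left out. Its call was lost without any 1 of the WT engrafted arrays (limma adjusted p = 0.0695 to 0.104). Mki67 was neither called nor held within 2-fold. It read 13.40, 13.86 and 13.03 in WT engrafted cells and 13.01 and 12.85 in PreB cells, a difference of 0.50 with an interval of -0.29 to 1.28. Its groups did not overlap, and both stood near the top of the scale. Incenp, of the chromosomal passenger complex, was held within 2-fold (difference 0.36), while 1 of its 5 probe sets was called higher. Of the 19 called genes 13 kept their calls with each array left out, and the count of called genes ran from 13 to 15. With the actin term 1 of 37 was called, Plk1 at 3.17 (limma adjusted p = 0.0421), and the median difference was 1.14. Differences were smaller in that fit for Ube2c (0.23), Cdc25b (0.87), Kif20a (0.92), Ccnb2 (1.37) and Aurka (1.87), and stood at 3.36 for Cdk1, 3.27 for Birc5 and 1.79 for Cdc20.

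Of 36 DNA replication genes measured, 13 were called higher in WT engrafted cells (36.1%, beside 4.51% of all genes) and 0 lower. At an unadjusted p under 0.05, 16 were higher and 0 lower. By the interval 7 were held within 2-fold, 16 were neither called nor held, and the median difference was 0.87. The median member read 10.46 in WT engrafted, 9.25 in PreB and 10.21 in ProB cells. Mcm2, a subunit of the replicative helicase, read 9.91, 10.74 and 10.60 in WT engrafted cells and 7.37 and 7.93 in PreB cells. The groups did not overlap, the difference was 2.77 (SE 0.32, limma adjusted p = 0.00163), and both probe sets called it. The other helicase subunits were not uniform. Mcm3 was 1.56 higher (limma adjusted p = 0.00746), while Mcm5 (0.02), Mcm6 (0.00) and Mcm4 (-0.32) were held within 2-fold. Held refers to the brightest probe set: 1 of the 3 probe sets of Mcm5 and 1 of the 3 of Mcm6 were called higher.

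Among the other genes of the pathway, Lig1, the ligase of the lagging strand, was 2.27 higher (limma adjusted p = 0.00109), Dut, which removes dUTP, 2.21 higher (0.00128), Rpa2, of the single strand binding complex, 2.08 higher (0.00619) and E2f2, a transcription factor of S phase, 2.02 higher (0.00365). Rrm2, the small subunit of ribonucleotide reductase, read 12.69 to 13.23 and 13.08 and 13.18, and was held at -0.21. Cdt1 and Cdc6, which license origins, were held at -0.18 and 0.06, and the flap nuclease Fen1 at 0.36. Chaf1b, of the chromatin assembly complex, had the largest difference, 3.07 (limma adjusted p = 0.0248), and lost its call without either PreB array (0.111 and 0.092) and without WT engrafted array 2 (0.0572) or 3 (0.0722). The list's count fell to 6 without PreB array 3 and to 8 without PreB array 2, WT engrafted array 2 or WT engrafted array 3. It was 1 with the actin term, where the median difference was 1.44, and 1 in a fit of the 5 arrays alone.

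Of the 29 cyclin, inhibitor and quiescence genes, 4 were called higher in WT engrafted cells and 8 lower. Ccnd3, the D cyclin on which pre-B cell expansion depends, read 11.26, 11.55 and 11.19 in WT engrafted cells, 6.46 and 7.36 in PreB cells and 10.94 and 11.38 in ProB cells. WT engrafted and ProB arrays overlapped, both PreB arrays lay far below, and the difference from PreB was 4.42 (SE 0.39, limma adjusted p = 0.000395). It rested on 1 of 3 probe sets. Ccnd2 read 10.29, 10.37 and 11.07 against 7.26 and 7.59, was 3.15 higher (SE 0.35, limma adjusted p = 0.00131), and was called by 4 of its 7 probe sets. Their partner Cdk6 was 1.98 higher (limma adjusted p = 0.0133, and 0.0698 without PreB array 2).

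The lower genes included inhibitors of division. Cdkn1b, the inhibitor p27, read 10.21, 10.25 and 10.02 in WT engrafted cells, 11.39 and 11.51 in PreB cells and 7.70 and 8.09 in ProB cells. WT engrafted cells thus lay between the normal stages, 1.29 below PreB (SE 0.20, limma adjusted p = 0.00585). Btg1, an antiproliferative factor, showed the same order at 13.66, 13.63 and 13.27 against 14.67 on both PreB arrays and 10.45 and 10.77 in ProB cells. It was 1.15 lower than in PreB (limma adjusted p = 0.0161, and 0.0695 and 0.0701 without PreB array 2 or 3). Foxo3, a factor of quiescence, was 1.41 lower (0.00974, and 0.0533 without PreB array 3). The larger differences were those of Klf4 (-4.74), Klf6 (-4.36) and Tsc22d3 (-3.18), all called in each fit that left out an array. Klf2, a factor of resting lymphocytes, read 10.13 to 10.43 in WT engrafted cells, 9.88 and 10.57 in PreB cells and 5.10 and 5.15 in ProB cells. Its groups overlapped, with a difference of 0.09 and an interval of -0.89 to 1.08. The inhibitors Cdkn2c (1.499) and Cdkn2d (2.59) had positive differences that were not called. When the actin term was added, 1 member of this list was called, Tsc22d3 at -4.68, while Ccnd3 stood at 3.12, Ccnd2 at 4.28, Cdkn1b at -0.50 and Foxo3 at -0.22.

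**Figure D4:**
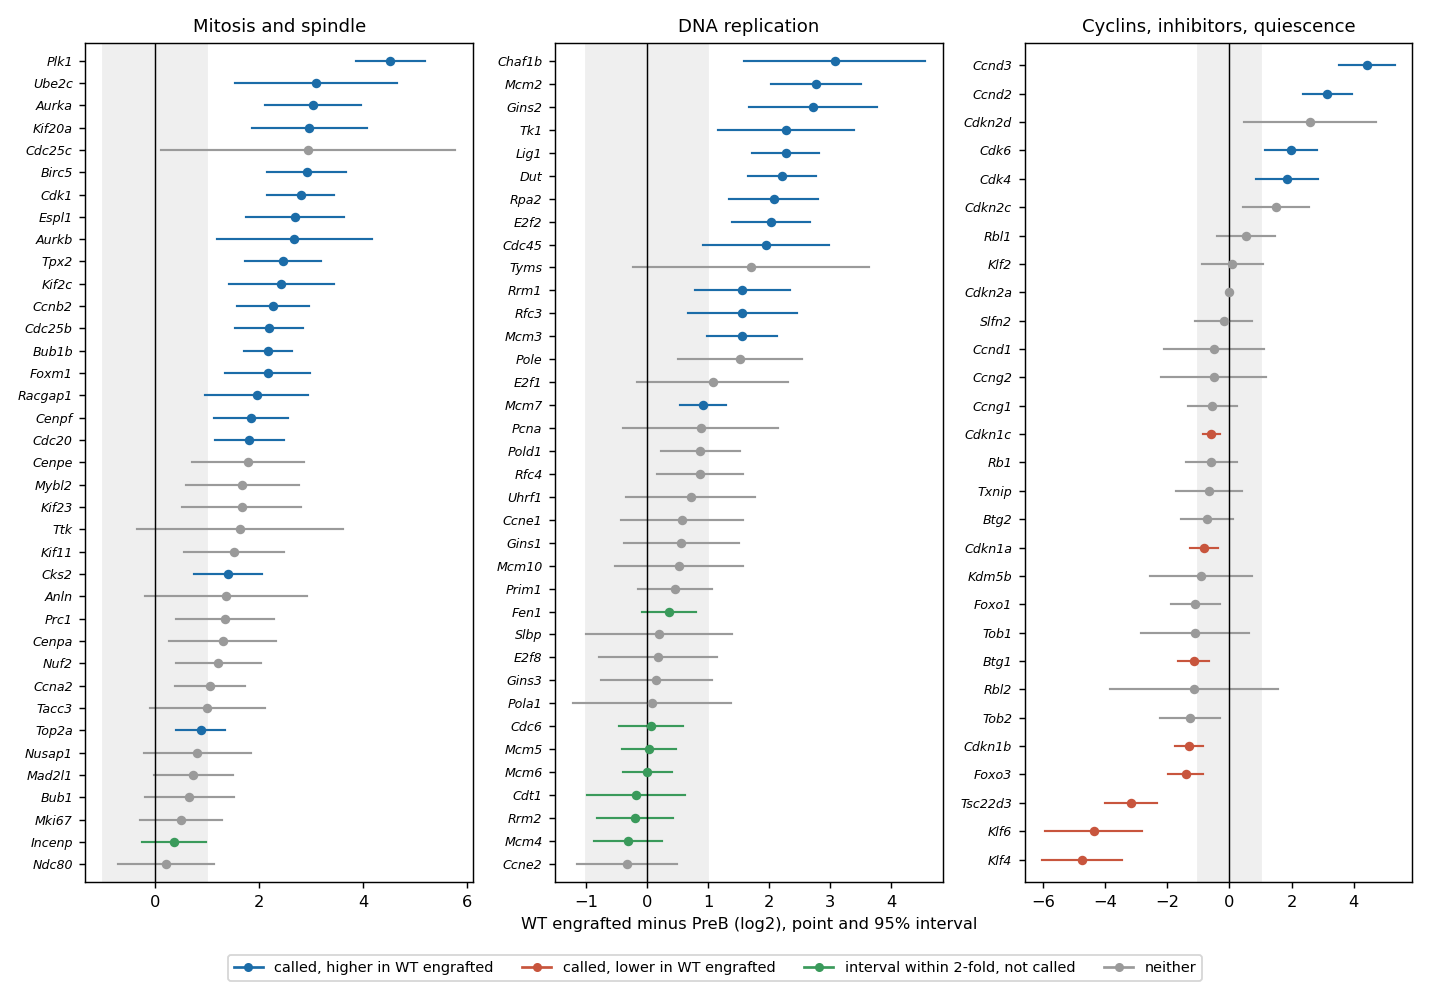
Log2 difference, WT engrafted minus PreB, of each measured gene of the mitosis (37), replication (36) and cyclin and inhibitor (29) lists, with its 95% interval from the limma fit; the grey band marks 2-fold in either direction. All 37 mitosis differences lay right of 0, while Klf4, Klf6 and Tsc22d3 lay farthest left among the inhibitors.

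The factors that define the B lineage were mostly not called. Of 31 transcription factors, 2 were called higher (6.45%) and 4 lower (12.9%), beside 4.51% and 2.86% of all genes, with a median difference of -0.23. Ikzf1 (Ikaros) read 12.36, 12.84 and 11.79 in WT engrafted cells and 12.23 and 12.09 in PreB cells, which lay within that range. It was held within 2-fold (0.18), as were Myb (-0.42), Irf8 (-0.19) and the coactivator Pou2af1 (0.23). Pax5, the commitment factor, read 6.76, 6.18 and 6.60 against 5.01 on both PreB arrays, with a difference of 1.505 and an interval of -0.03 to 3.03. Ebf1, which acts with it, read 12.41, 12.36 and 11.71 against 13.34 and 13.58, with a difference of -1.30 and an interval of -2.35 to -0.25 (limma adjusted p = 0.159). The arrays of the groups did not overlap for either factor, and neither was called.

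The called factors were these. Bcl11a, needed for B cell development, read 9.50, 9.91 and 8.96 in WT engrafted cells, 7.27 and 7.54 in PreB cells and 9.45 and 10.50 in ProB cells. It was 2.05 above PreB (SE 0.33, limma adjusted p = 0.00713, by 1 of 7 probe sets). Spi1, which encodes PU.1, was 0.87 higher (0.0364), a call lost with each array left out (0.0527 to 0.212). Ikzf3 (Aiolos), induced by the pre-B receptor, read 8.43, 8.32 and 8.05 against 10.27 and 10.50, and 6.15 and 7.41 in ProB cells. It was 2.12 below PreB (limma adjusted p = 0.00383), while 1 of its other 2 probe sets was called the opposite way, so its direction is uncertain. Gfi1, a repressor, was 2.02 lower (limma adjusted p = 0.00307). Ikzf2 (Helios) read 2.65, 3.28 and 2.64 against 6.41 and 6.56 and was 3.62 lower (6.26e-05). Id2, an inhibitor of E proteins that NK cells express strongly, read 6.57, 7.14 and 5.41 against 12.30 and 12.60 and was 6.07 lower (8.02e-05). Id2 stands in the NK marker list too, whose summed signal was lower on all 3 WT engrafted arrays. The part of other cells in these falls was not tested.

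Recombination genes gave 0 calls by limma among 13 measured, while 3 were higher and 0 lower at an unadjusted p under 0.05. Rag1 read 12.04, 12.03 and 10.16 in WT engrafted cells, 12.01 and 12.08 in PreB cells and 9.28 and 8.70 in ProB cells. WT engrafted arrays 1 and 2 lay at the PreB level and array 3 below it, with a difference of -0.63 and an interval of -2.30 to 1.04. Rag2 read 9.45, 9.71 and 8.63 against 7.95 and 7.34, a difference of 1.62 with an interval of 0.06 to 3.18. Dntt, the terminal transferase of pro-B cells, read 10.69, 11.28 and 9.49 against 10.31 and 9.33, with 11.86 and 12.78 in ProB cells. Its groups overlapped, and both lay below ProB. The Ku70 gene Xrcc6 was held within 2-fold (-0.29).

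Of 23 genes of the small pre-B stage, 1 was called higher (4.35%) and 2 lower (8.7%), beside 4.51% and 2.86% of all genes. Their median levels were 9.77 in WT engrafted, 10.26 in PreB and 7.55 in ProB cells. Against ProB, 15 were called higher in PreB cells and 13 in WT engrafted cells, with 0 lower in both. Of all genes, 6.34% and 3.63% were called higher in these comparisons, which share the ProB arrays. Il2ra (CD25), a surface marker of pre-B cells, read 6.22, 6.62 and 5.17 in WT engrafted cells, 6.61 and 6.30 in PreB cells and 2.32 and 2.35 in ProB cells. Cd2 read 9.28, 9.13 and 7.93 against 9.66 and 9.52, with 2.55 and 2.44 in ProB cells. Il2ra overlapped between the groups compared and Cd2 did not, at differences of -0.45 and -0.81, and ProB cells lay near the floor for both. Irf4, which promotes light chain rearrangement, differed by -0.23 with an interval of -1.92 to 1.45. The called members were Cd22, an inhibitory receptor of B cells (2.72 higher), Ikzf3, and the chemokine receptor Cxcr4 (2.60 lower, limma adjusted p = 0.00894, and 0.0502 without PreB array 3). After equalising upper quartiles, 6 members of the list were called lower.

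Markers of the stage before were divided. Of 19 pro-B and large pre-B genes, 3 were called higher and 1 lower. Enpep (the BP-1 antigen), a surface peptidase of large pre-B cells, read 8.01, 7.83 and 8.14 in WT engrafted cells, 5.78 and 6.03 in PreB cells and 9.01 and 8.77 in ProB cells. The arrays of WT engrafted and PreB cells did not overlap, with a difference of 2.09 (SE 0.10, limma adjusted p = 8.59e-06). The standard deviations were 0.16 and 0.17 in these groups. The SE is pooled over all groups of the series, and the engrafted Pax5 knockout arrays each read 2.48, at the floor and without spread. The SE and p-value therefore do not measure the spread of the compared arrays alone. With the actin term the difference was 2.05 and was called (0.0201). Flt3, a progenitor receptor, was 2.22 lower than in PreB cells (limma adjusted p = 0.00849, and 0.0523 without PreB array 3). Cd24a, present through B cell development, was held within 2-fold at -0.05. Kit read 3.11, 3.97 and 2.52 against 4.89 and 4.61, a difference of -1.55 that was not called. Spn (CD43) read 8.97, 8.79 and 9.38 against 8.86 and 8.91, with 10.27 and 11.03 in ProB cells.

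For surface genes of maturing B cells, the median of 35 genes was 7.66 in WT engrafted, 7.75 in PreB and 4.95 in ProB cells. Against ProB, 18 were called higher and 1 lower in WT engrafted cells, and 17 higher and 0 lower in PreB cells, with the ProB arrays shared. The shares of all genes were 3.63% and 1.3% for WT engrafted cells and 6.34% and 5.18% for PreB cells. Between WT engrafted and PreB cells, 5 were called higher (14.3%) and 4 lower (11.4%), beside 4.51% and 2.86% of all genes.

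The higher members were receptors of the B cell surface. Cd22 read 10.55, 10.78 and 10.68 in WT engrafted cells, 7.86 and 8.04 in PreB cells and 8.67 and 8.74 in ProB cells, a difference from PreB of 2.72 (SE 0.44, limma adjusted p = 0.00769) called by both probe sets. Siglecg, which like Cd22 restrains the receptor, read 10.57, 10.63 and 10.31 against 8.24 and 8.36 and was 2.20 higher (SE 0.30, limma adjusted p = 0.00345). Fcmr, the receptor for IgM, read 11.12, 11.15 and 10.26 against 8.84 and 8.44 and was 2.20 higher (SE 0.25, limma adjusted p = 0.00142). These 3 genes did not overlap between the groups and kept their calls with each array left out. Tnfrsf13b (TACI), a receptor for BAFF, was 2.40 higher and Fcrl1 2.38 higher. Tnfrsf13b lost its call without PreB array 3 (0.126) and, narrowly, without any 1 of the WT engrafted arrays (0.0534 to 0.0543). Fcrl1 lost it without either PreB array (0.0837 and 0.0866) or WT engrafted array 2 (0.0549).

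The lower members were Cd69, Cd83, Cd55 and Nfkbia. Cd69, an early activation antigen, read 7.89, 7.73 and 6.98 in WT engrafted cells, 12.39 and 12.40 in PreB cells and 8.71 and 9.24 in ProB cells. PreB cells stood above both other groups, and the difference was -4.86 (SE 0.33, limma adjusted p = 6.64e-05). Cd83 was 2.15 lower (limma adjusted p = 0.0359, and 0.148 and 0.126 without PreB array 2 or 3), and lost its call without WT engrafted array 1 as well (0.0532). Cd55, a regulator of complement, was 1.51 lower (limma adjusted p = 0.0187, and 0.0928 and 0.0659 without those PreB arrays). Nfkbia, the NF-κB inhibitor, was 0.997 lower (0.0462), lost its call with each array left out (0.0622 to 0.236), and read 0.24 higher with the actin term.

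Genes of late maturation were low or variable. Cr2 (CD21) read 3.35, 4.66 and 2.32 in WT engrafted cells and 2.32 on both PreB arrays. Fcer2a (CD23) read 6.05, 6.40 and 3.11 against 3.78 and 4.74, so that its groups overlapped. Ms4a1 (CD20) read 12.41, 12.23 and 10.90 against 10.47 and 10.04, with 7.01 and 7.02 in ProB cells, a difference of 1.59 that missed the threshold (limma adjusted p = 0.0595). WT engrafted array 3 was the lowest of its group for all 3 genes. The list's count of higher members ran from 3 to 9 over the fits that left out an array, and 1 member, Cd69, was called with the actin term, where Tnfrsf13b stood at 0.78 and Cd22 at 3.67.

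Genes of MHC class II presentation gave 2 calls among 17, both higher (11.8%, beside 4.51% of all genes). Ciita, the master regulator of the class II genes, read 4.01, 3.59 and 4.81 in WT engrafted cells and 2.33 and 2.32 in PreB cells, where it was at the floor. Its difference of 1.81 is a lower bound (SE 0.28, limma adjusted p = 0.00576), and 2 of 3 probe sets called it. H2-DMa, of the peptide exchange factor, read 7.83, 7.69 and 8.13 against 5.67 and 5.62 and was 2.23 higher (SE 0.36, limma adjusted p = 0.00775, by 1 of 2 probe sets). The class II chains were not called: H2-Aa differed by -0.57 with an interval of -3.38 to 2.24, and H2-Ab1 by 0.86 with an interval of -0.50 to 2.21. Cd74, the invariant chain, read 10.76, 10.95 and 9.94 against 8.27 and 8.66, a difference of 2.09 that was not called (limma adjusted p = 0.157). In the fit with the actin term 0 members were called, while the median difference went from 0.55 to 1.78, and Ciita stood at 2.33 and H2-DMa at 1.98.

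Immediate early and stress genes were high in PreB cells. Of 33 measured, 17 were called lower in WT engrafted cells and 1 higher, with a median difference of -2.11. The median member read 7.0045 in WT engrafted, 9.66 in PreB and 7.0044 in ProB cells, so that PreB stood apart. From ProB to PreB, 19 were called higher and 1 lower (6.34% and 5.18% of all genes). Between WT engrafted and ProB cells 3 were called in each direction (3.63% higher and 1.3% lower of all genes), with arrays shared.

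The largest differences were those of the inducible Hsp70 genes, Hspa1a and Hspa1b, whose promoters are shown because they were nearly identical. The lines give the last 200 bases before the RefSeq start on GRCm38.p6, at chr17:34972157-34972356 and chr17:34959239-34959438 (both minus strand), and capitals mark the heat shock element GAANNTTC.
Hspa1a: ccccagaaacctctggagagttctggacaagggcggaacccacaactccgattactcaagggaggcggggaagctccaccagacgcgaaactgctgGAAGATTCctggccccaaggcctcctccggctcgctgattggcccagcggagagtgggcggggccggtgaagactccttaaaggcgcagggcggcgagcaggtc
Hspa1b: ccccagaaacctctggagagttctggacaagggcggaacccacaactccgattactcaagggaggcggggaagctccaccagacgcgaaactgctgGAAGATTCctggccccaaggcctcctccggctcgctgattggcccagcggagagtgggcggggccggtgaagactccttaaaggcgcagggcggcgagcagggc
The stretches differ at 1 base. On either strand of the 250 bases before the start, GAANNTTC was found in 4 of 25 promoters of the list (16%) and in 6.78% of all promoters. All 4 were among the 15 promoters of its called genes (26.7%), and they include these nearly identical promoters of Hspa1a and Hspa1b. Hspa1a read 2.32 on all 3 WT engrafted arrays, at the floor, and 9.98 and 10.16 on the PreB arrays, with 2.72 and 2.32 in ProB cells. The difference of -7.75 is a lower bound in size (SE 0.21, limma adjusted p = 2.02e-07). Hspa1b read 5.64, 7.55 and 6.01 against 14.08 and 13.91, with 7.86 and 8.53 in ProB cells, and was 7.597 lower (SE 0.93, limma adjusted p = 0.00208). The copies may share signal between their probe sets, so their separate levels are uncertain.

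The other chaperone genes of the list were Hsp90aa1 (difference -0.62, limma adjusted p = 0.0388), Hsph1 (-1.06, 0.185), Dnajb1 (-0.39, 0.662) and Hspa8, the constitutive Hsp70, held within 2-fold at 0.20. Of these Hsp90aa1 was called. The AP-1 factor Jun read 6.38, 7.14 and 5.90 in WT engrafted cells, 11.55 and 10.76 in PreB cells and 8.10 and 8.13 in ProB cells. It was 4.68 below PreB (SE 0.70, limma adjusted p = 0.00521). Junb was 2.98 lower and Fosl2, at the floor in WT engrafted cells, 5.01 lower. Fos was 4.39 lower (limma adjusted p = 0.0141, and 0.0654 and 0.0591 without PreB array 2 or 3), but its ProB arrays read 11.48 and 12.17, near the PreB values of 12.54 and 12.38.

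Nr4a2, an orphan receptor induced by activation, read 2.501, 3.13 and 2.64 against 7.73 on both PreB arrays and was 4.97 lower (SE 0.47, limma adjusted p = 0.000555, by 1 of 6 probe sets). Atf3, a factor of the stress response, was at the floor in WT engrafted cells and read 6.69 and 6.43 in PreB cells (difference -4.24, limma adjusted p = 9.1e-07). The phosphatase gene Dusp1 was 4.38 lower and Ppp1r15a, which reverses translation arrest, 3.18 lower. Myc was the 1 member called higher. It read 6.98, 8.22 and 7.63 in WT engrafted cells, 5.27 and 5.35 in PreB cells and 7.65 and 7.85 in ProB cells, and was 2.298 higher than in PreB cells (limma adjusted p = 0.0102, SE 0.40).

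Of the 18 called genes 13 kept their calls with each array left out, and 4 members were called with the actin term. The stress genes were high on the same PreB arrays as the actin difference and the NK and granulocyte markers, and the part of these in the result was not tested.

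**Figure D5:**
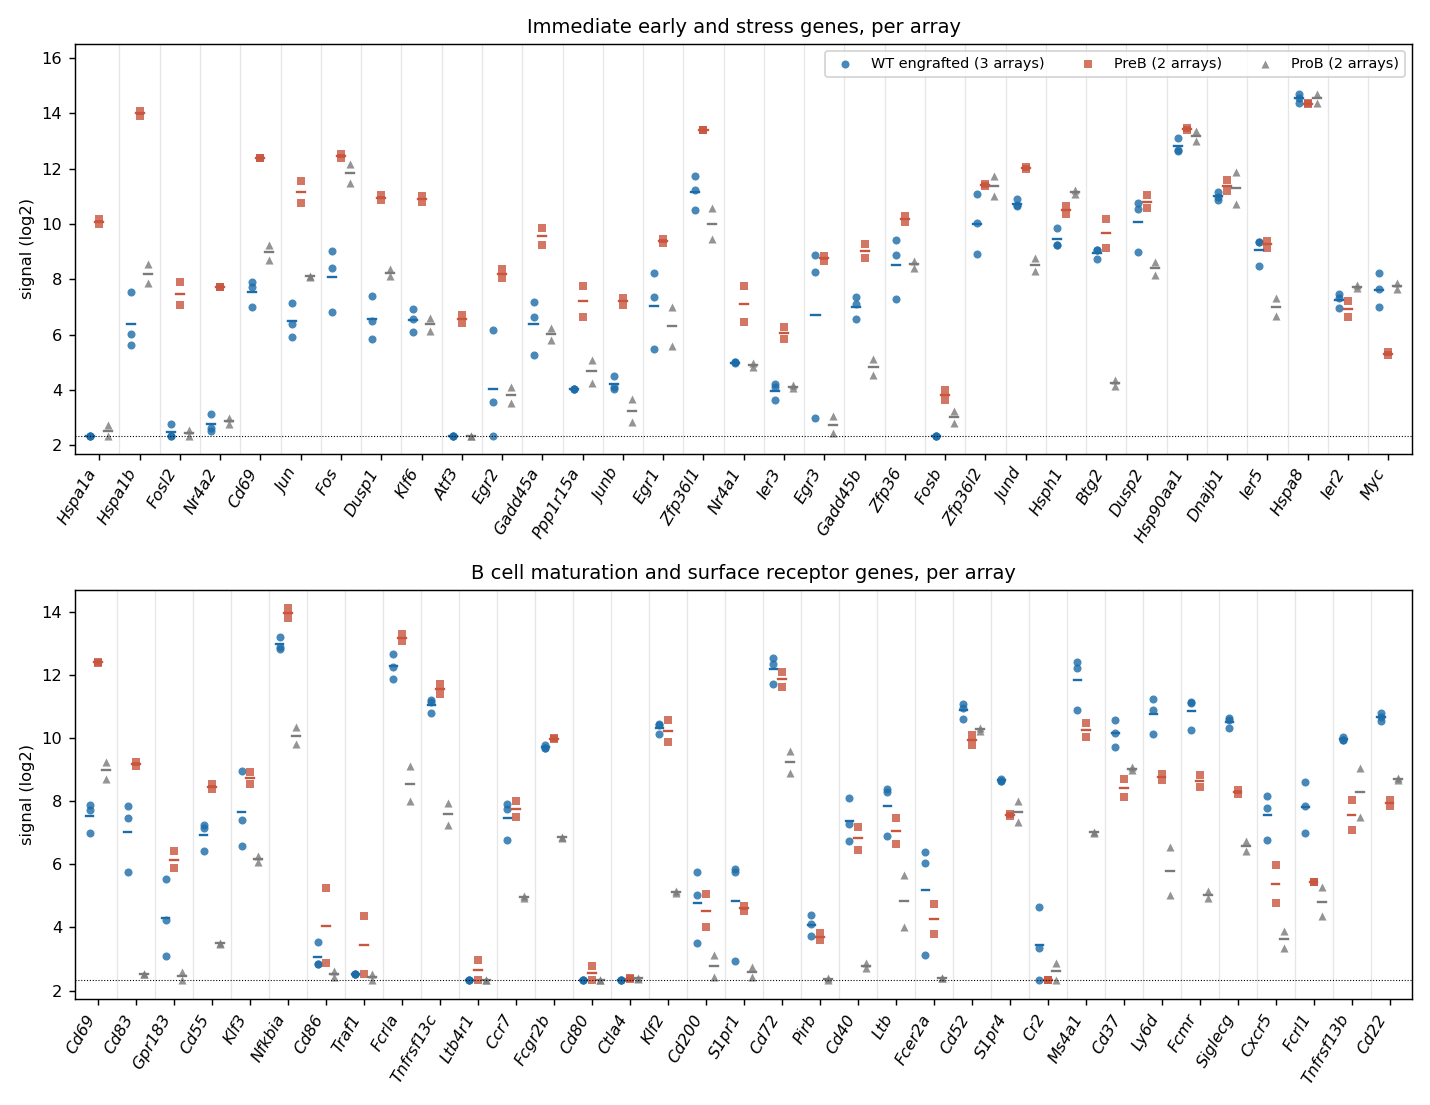
Log2 signal of the 33 immediate early and stress genes (top) and the 35 maturation and surface receptor genes (bottom) on the WT engrafted (3), PreB (2) and ProB (2) arrays, ordered by the WT engrafted minus PreB difference; points are arrays, bars group means, and the dotted line the floor. In the top panel PreB arrays stood above the other groups for most genes, as for Hspa1a at 9.98 and 10.16; in the bottom panel ProB arrays were mostly the lowest.

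IL-7 receptor signalling, on which pro-B and large pre-B cells depend, was not uniform. Of 25 genes, 5 were called higher and 4 lower. Il7r itself read 11.58, 12.03 and 11.20 in WT engrafted cells and 12.42 and 12.10 in PreB cells, a difference of -0.66 with an interval of -1.47 to 0.15. The higher genes were Ccnd3, Ccnd2, Myc, Pik3cd and Akt1, the kinase downstream of PI3K (9.48, 9.84 and 9.65 against 8.11 and 7.94, difference 1.63, limma adjusted p = 0.00154, by 1 of 4 probe sets). Socs3, a feedback inhibitor, read 4.66, 3.28 and 3.65 against 9.20 and 9.37 and was 5.42 lower (SE 0.60, limma adjusted p = 0.0013). Pim1, a kinase induced by STAT5, read 9.08, 9.14 and 10.21 against 11.70 and 12.19 and was 2.47 lower (limma adjusted p = 0.00669). Pim3 was 1.97 lower (0.00829, and 0.0552 without PreB array 3) and Mycn 1.55 lower (0.0111, and 0.0634 without PreB array 3). Pim2 was held within 2-fold at 0.16. The feedback genes Cish and Socs2 differed by -0.88 and -0.54 without a call, and Socs1 was at the floor in both groups. Adding the actin term left 0 members called, with Socs3 at -3.76, Pim1 at -1.62, Akt1 at 1.52 and Mycn at -0.44.

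Targets of p53, the factor of the DNA damage response, gave 1 call higher (4.35%) and 6 lower (26.1%) among 23. The shares of all genes were 4.51% and 2.86%. Pmaip1 (Noxa), which promotes apoptosis, read 3.38, 2.57 and 2.57 in WT engrafted cells and 7.56 and 7.27 in PreB cells (difference -4.57, limma adjusted p = 3.92e-05). Ddit4, an inhibitor of mTORC1, read 2.73, 3.07 and 3.37 against 8.73 and 8.06 (difference -5.33, 3.92e-05), and Plk2 2.87, 3.72 and 2.69 against 8.49 and 7.99 (difference -5.14, 7.97e-05). ProB arrays read 2.57 to 3.69 for these genes, beside the WT engrafted arrays. Bbc3 (Puma) was 2.28 lower (limma adjusted p = 0.00301). Mdm2 (-0.13), Ccng1 (-0.55) and Trp53inp1 (-0.43), targets too, were not called. Gtse1, a G2 and S phase protein, was the gene called higher (3.08, limma adjusted p = 0.00023). With the actin term Pmaip1 and Plk2 were the 2 members called.

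Interferon response genes gave 8 calls higher (29.6%, beside 4.51% of all genes) and 0 lower among 27. At an unadjusted p under 0.05, 11 were higher and 1 lower. The median difference was 0.99, and 0.14 with the actin term. Usp18, which restrains the interferon receptor, read 6.51, 5.99 and 4.71 in WT engrafted cells and 2.66 and 2.45 in PreB cells, where it was at the floor (difference at least 3.19, SE 0.48, limma adjusted p = 0.00561). Oas1a, a sensor of double-stranded RNA, read 7.46, 7.51 and 7.73 against 4.41 and 4.67, with 7.08 and 7.67 in ProB cells. It was 3.03 higher than in PreB (SE 0.39, limma adjusted p = 0.00269). These 2 kept their calls with each array left out. Ifi27l2a was 2.73 higher (0.015, and 0.0864 without PreB array 2). The list's count was 3 to 5 over the fits that left out an array and 1 with the actin term. Ifit1 (0.99), Ifit3 (0.55) and Irf7 (0.50) were not called, and Rsad2 had a negative difference (-1.35).

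Among ribosomal proteins, 5 of 15 were called higher and 6 were held within 2-fold. Rplp0, of the ribosomal stalk, read 15.02 on all 3 WT engrafted arrays and 12.39 and 12.59 on the PreB arrays (difference 2.53, SE 0.17, limma adjusted p = 6.64e-05). Rps15 was 3.06 higher (limma adjusted p = 0.00172, by both probe sets). These 2 genes kept their calls with each array left out, while Rps20 (-0.07), Rps4x (0.13), Rps18 (0.09) and Rps3 (-0.06) were held by their brightest probe sets. Of the 6 probe sets of Rps18, 2 were called higher. After equalising upper quartiles 2 members were called. The actin term left 0 called, while the median difference went from 0.58 to 1.01 and that of Rps15 was 3.53.

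Metabolic lists are given beside the 4.51% higher and 2.86% lower of all genes. Of 19 genes of glucose uptake and glycolysis 2 were called higher (10.5%) and 1 lower (5.26%). Pkm, pyruvate kinase, read 8.43, 9.29 and 9.44 in WT engrafted cells and 6.96 and 6.92 in PreB cells and was 2.11 higher (limma adjusted p = 0.00776). Pgk1 (0.40), Hk2 (0.11) and Pdk1 (-0.08) were held within 2-fold. Of 26 genes of cholesterol and fatty acid synthesis 2 were called higher (7.69%) and 1 lower (3.85%). Insig1, which holds back sterol synthesis, read 6.37, 6.06 and 6.38 against 9.01 and 9.86, with 5.34 and 5.12 in ProB cells, and was 3.17 lower (limma adjusted p = 0.00577). Acly (-0.15) and Scd2 (-0.11) were held.

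Genes of homing and adhesion gave 1 call higher and 4 lower among 27. Icam2, an adhesion ligand, read 10.33, 9.94 and 10.57 in WT engrafted cells, 7.91 and 7.88 in PreB cells and 9.05 and 9.77 in ProB cells (difference 2.38, SE 0.27, limma adjusted p = 0.00159). Ccr9, the receptor for CCL25, was at the floor in WT engrafted cells at 2.32 to 2.58 and read 10.49 and 10.38 in PreB cells. Its difference of -8.01 is a lower bound in size (SE 0.84, limma adjusted p = 0.00101, by 2 of 5 probe sets). Plasmacytoid dendritic cells express Ccr9 too, and their marker Siglech read 2.33 on each WT engrafted array and 3.60 and 5.11 on the PreB arrays. Of 14 dendritic markers, Ccr9 and Siglech included, 3 were called lower, 0 higher and 11 not called, with a median difference of -0.10. Their summed signal was 12.41 to 12.66 in WT engrafted cells and 12.74 to 12.87 in PreB cells. The integrin subunit Itga4 (0.21) and Selplg (0.11) were held within 2-fold, while 1 of the 5 probe sets of Itga4 was called lower.

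Of 19 genes tied to a fetal origin, 11 were at the floor in both groups, among them Lin28b, Igf2bp1 and Hmga2, which mark fetal progenitors. In each direction 1 was called (5.26%), beside 4.51% higher and 2.86% lower of all genes. Igf2bp3 was measured above the floor and read 6.71, 6.17 and 6.50 in WT engrafted cells, 6.72 and 6.67 in PreB cells. Its difference was -0.24 with an interval of -1.10 to 0.62. The called genes were Bcl11a and Mycn, described above.

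The antibody and plasma cell list gave 1 call lower among 18 genes. Of 19 antibody genes 0 were called by limma after adjustment, and 1 was higher and 1 lower at an unadjusted p under 0.05. Jchain read 2.93, 6.27 and 6.41 in WT engrafted cells and 8.64 and 2.59 in PreB cells, while the ProB arrays read 12.00 and 12.22. Igha read 8.12 on PreB array 2 and 3.36 on PreB array 3, with 3.14 to 3.75 in WT engrafted cells and 11.91 and 11.95 in ProB cells. Ighg3 read 2.64 to 2.66 in WT engrafted cells, 2.91 and 2.45 in PreB cells and 9.96 and 10.19 in ProB cells. The part of other cells in these ProB values was not tested. Jchain on PreB array 2 lay above the WT engrafted arrays and on PreB array 3 below them, and the ProB arrays stood above both groups.

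Beyond the lists, the genes with the largest differences included further genes of these kinds. The 15 largest differences upward held Plk1, Ccnd3 and further genes of division. They also held Abhd14a, Tbc1d10c, Mtm1, Thop1, Mlec, Med9 and Mbd3. Ccnf, the cyclin F of G2, read 8.27, 8.17 and 8.87 in WT engrafted cells and 3.87 and 5.16 in PreB cells (difference 3.92, SE 0.35, limma adjusted p = 0.000395, by both probe sets). Sapcd2 was 4.09 higher (by 1 of 3 probe sets), Pimreg 3.95 higher and the tubulin gene Tubb4b 3.55 higher (by 1 of 6 probe sets). The call of Pimreg was lost without PreB array 3 (0.0817). Nt5dc2 read 7.57, 7.34 and 7.54 against 3.76 and 3.83 (difference 3.69, SE 0.24, limma adjusted p = 5.54e-05).

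The gene with the largest upward difference, Mcpt8, is a protease of basophils. It read 7.07, 7.85 and 8.82 in WT engrafted cells, 3.10 and 2.60 in PreB cells and 2.52 and 3.69 in ProB cells (difference 5.06, SE 0.75, limma adjusted p = 0.00504). Of 9 basophil and mast cell markers, 3 were called higher and 1 lower. Ms4a2, the β chain of the IgE receptor, read 4.86, 5.77 and 6.17 against 2.44 on both PreB arrays (difference at least 3.16, limma adjusted p = 0.00231). Hdc, which makes histamine, went the other way at 4.42, 4.83 and 5.19 against 8.15 and 8.38 (difference -3.45, 3.92e-05). The list's summed signal was 8.01 to 9.39 in WT engrafted and 8.43 to 8.60 in PreB cells, with Il4 at the floor in both.

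The 15 largest differences downward held Hspa1a, Hspa1b, Ccr9 and genes of NK cells and granulocytes. Gzma, a granzyme, read 2.32 on each WT engrafted array and 10.31 and 10.95 on the PreB arrays, at least 8.31 lower (limma adjusted p = 1.81e-07). Eomes, a factor of NK cells, read 2.32 on each WT engrafted array and 8.76 and 8.87 in PreB cells (at least 6.49 lower, 1.28e-13). Its SE of 0.03 came from arrays at the floor. Klra8, an NK receptor, was at least 6.07 lower. Ltf, of neutrophil granules, read 2.55, 2.68 and 2.55 against 9.79 and 9.59 (at least 7.10 lower, 0.00688). Of the NK markers 10 of 14 (71.4%) and of the granulocyte markers 12 of 21 (57.1%) were called lower in WT engrafted cells. The share of all genes was 2.86%. In both lists 0 were higher, at either the adjusted or the unadjusted threshold. Rgs1, a regulator of chemokine receptor signals, read 2.37, 2.81 and 2.32 against 9.28 and 10.10, with 4.00 and 4.25 in ProB cells (at least 7.19 lower, limma adjusted p = 1.75e-05). Ctla2a read 3.06, 2.56 and 3.42 against 9.75 and 10.57, with 5.72 and 6.45 in ProB cells (difference -7.14, limma adjusted p = 8.34e-06).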

How the data were processed

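Gene expression was measured on Affymetrix arrays from amplified total RNA. The authors deposited log2 signals; RMA, GCRMA and limma are named per the submitters' processing notes, and which of them made the table is not stated. Array medians were 2.41 to 2.52, so the values were used as deposited. Each of 18193 genes was read by its brightest probe set over all arrays, with names from the platform annotation and RefSeq (GRCm38.p6); probe sets given no symbol here or more than 1 were not used. Differences were fitted with limma 3.58.1 in R 4.3.3 over all 14 arrays with a mean per group (8 residual degrees of freedom), two-sided, with Benjamini-Hochberg adjustment over all genes. The spread is thus pooled over groups. The fit was checked on simulated data. Members and gene lists were chosen with earlier results of these data known. Named genes were the 15 largest called differences in each direction, up to 4 called in each direction and 4 held genes per list, the surrogate light chain genes and Pax5, Ebf1 and Xist; further list members with values were chosen after their values were seen. Antibody and Y-linked genes were kept out of the largest differences. Alternatives varied scaling, probe set choice, filters, arrays and terms. The number of arrays limits the precision.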

Additional observations from a re-analysis of the deposited data

How the results depend on the processing

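The total of 1342 called genes ranged from 973 to 1277 with each array left out in turn, the 821 higher genes from 432 to 604 and the 521 lower genes from 387 to 845. These ranges count all genes called in each fit and not how many of the 1342 were kept. Without WT engrafted array 1, 2 or 3, 913, 963 and 882 of the 1342 were called in the same direction. Fewer of the 1342 were called in the same direction without either PreB array, where a lone array is left in that group. A fit of the 5 arrays alone called 460 genes, 248 higher and 212 lower, and has 3 residual degrees of freedom. Of these, 321 were among the 1342 with the same direction. With the actin 3' minus 5' difference as a term, chosen after seeing the data, 97 genes were called, 35 higher and 62 lower, and 76 of them were among the 1342 with the same direction. Of 111 named called genes, 16 kept their call with that term, 94 lost it and Nfkbia reversed, at 0.24. In the fit of the 5 arrays alone, 47 of the 111 kept their call, 64 lost it and 0 reversed. Without dim genes 339 were lower, and with every probe set on its own 859 were lower. With a band of 4-fold in place of 2-fold, 6611 genes were held. Ikzf3 reversed to 0.044 with probe sets averaged, Mcm6, held at 0.00, to 0.55 with probe sets averaged, and Cd4, near the floor, to -0.18 when Xist-high arrays had their own term and without WT engrafted array 3 (0.19 without WT engrafted array 2). The cause was not tested. Deviations of same-numbered arrays from their group means correlated at 0.087 and 0.086 by the title numbers and 0.025 and -0.087 by the description numbers. The deviations of the 2 PreB arrays mirror each other. These values are therefore not independent and cannot decide whether the numbers pair the arrays. With the replicate number as a block, 1231 genes were called by the title numbers and 1247 by the description numbers. Genes at the floor carry only bounds, and their standard errors come from values at the floor.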

Other observations

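Gene families chosen after their values were seen gave these counts, beside 4.51% higher and 2.86% lower of all genes. They overlap the lists above: called members such as Klf4, Klf6, Kif20a, Dusp1, Klrd1 and Klra8 were counted there too. Of 18 Klr genes, which encode receptors mostly of NK cells, 7 were called lower in WT engrafted than in PreB cells and 0 higher by limma, with a median difference of -0.80. Of 37 kinesin (Kif) genes 3 were called higher and 0 lower. Of 24 Dusp phosphatases 4 were called lower and 0 higher, and of 16 Klf factors 3 were called lower and 0 higher. Of 19 Rgs genes 1 was called higher and 2 lower. The platelet genes Pf4 and Ppbp read 10.31 and 8.81 on PreB array 3 and 2.32 on PreB array 2, while the WT engrafted arrays read 2.32 to 2.38 for Pf4 and 2.32 for Ppbp.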
